A study of Rattus norvegicus with 9 samples.

Results

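The 10 genes described here, Mat1a, Mat2a, Gnmt, Pemt, Ahcy, Bhmt, Cbs, Cth, Cdo1 and Csad, encode enzymes of the methionine cycle, of transsulfuration and of the route from cysteine to taurine. They were taken by name from the 32883 genes of the deposited table, each matched 1 line, and all 10 had enough counts to be tested in every comparison. Liver mRNA had been sequenced from 9 male Sprague-Dawley rats, with 1 library from each of 3 normal rats (N1, N3 and N12), 3 diethylnitrosamine (DEN) model rats (M13, M17 and M24) and 3 rats given DEN and PZH (G27, G28 and G42). Normal rats were fed a normal diet. Both other groups received 0.01% DEN, a liver carcinogen that damages hepatocyte DNA, as a weekly intraperitoneal injection over a course of 16 weeks, and the PZH group also received PZH, a traditional Chinese formula. The age of the rats, the PZH dose of the sequenced rats and the week in which each was killed are not given in the sources used here. The groups follow the letters of the rat names, because the treatment field of the labels names PZH for M rats as it does for G rats. The libraries came from liver tissue, so fewer cells of a type and less RNA per cell cannot be told apart. Which part of the liver was taken is not given in the sources used here.

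Methionine adenosyltransferases convert methionine to S-adenosylmethionine, the methyl donor of most methylation reactions. Methyltransferases such as Gnmt and Pemt use it and leave S-adenosylhomocysteine, which Ahcy hydrolyses to homocysteine. Homocysteine is then remethylated to methionine, in liver also by Bhmt with betaine as donor, or is passed through cystathionine to cysteine by Cbs and Cth, a route that feeds glutathione and taurine. Most of these enzymes are abundant in hepatocytes. Mat1a encodes the catalytic subunit of adult liver, whereas Mat2a encodes the subunit used in fetal liver, in proliferating cells and in most other tissues.

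The isozyme pair also differed in the bases before the gene starts, which are printed here because the pair went in opposite directions in the DEN model group. The 250 bases upstream of the annotated start (RefSeq, GRCr8) were at chr16:17016918-17017167 on the plus strand for Mat1a and at chr4:106053613-106053862 on the minus strand for Mat2a. Both are given 5′ to 3′, and capitals mark CG dinucleotides.
Mat1a: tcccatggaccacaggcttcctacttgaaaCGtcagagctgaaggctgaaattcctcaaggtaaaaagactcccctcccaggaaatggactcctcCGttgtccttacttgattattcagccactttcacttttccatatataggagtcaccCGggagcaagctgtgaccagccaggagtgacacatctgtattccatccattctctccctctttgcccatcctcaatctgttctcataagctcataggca
Mat2a: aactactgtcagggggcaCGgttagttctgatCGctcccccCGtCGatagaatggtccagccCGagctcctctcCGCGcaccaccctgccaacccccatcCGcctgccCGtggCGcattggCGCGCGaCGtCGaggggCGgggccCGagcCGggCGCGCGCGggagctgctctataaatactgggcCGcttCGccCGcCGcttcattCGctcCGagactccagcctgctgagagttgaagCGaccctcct

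The Mat1a stretch held 3 CG dinucleotides at a G+C content of 48.0%, and the Mat2a stretch held 29 at 67.6%. Over all 33469 rat promoters of the RefSeq table the medians were 5 CG dinucleotides and 51.2% G+C. The other 7 members with an entry were above the median G+C content, and their CG dinucleotides ranged from 4 in Pemt, the only one of the 7 below that median, to 37 in Csad. Of 10 members, 9 were matched, and Cdo1 was not.

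The same 250 bases were searched on both strands for the letters of 8 elements. Letters of an HNF4A element, CAAAGNNCA, occurred in the upstream 250 bases of 3 of the 9 members (Ahcy, Bhmt and Cth) and of 5.22% of all promoters. HNF4A is a nuclear receptor of hepatocytes. The 3 matches are shown in capitals within 60 bases each, all on the minus strand, at chr3:164044746-164044805 (Ahcy), chr2:26614620-26614679 (Bhmt) and chr2:249661140-249661199 (Cth).
Ahcy: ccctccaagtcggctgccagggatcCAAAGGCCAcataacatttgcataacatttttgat
Bhmt: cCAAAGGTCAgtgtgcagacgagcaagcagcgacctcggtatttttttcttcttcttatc
Cth: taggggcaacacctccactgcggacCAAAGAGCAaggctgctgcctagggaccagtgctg

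The GC box GGGCGG was present in 6 of the 9 members, against 30.5% of all promoters, and the TATA box TATAAA in Bhmt and Mat2a, against 12.9%. TTGCNNAA, a C/EBP element, was found only in Ahcy among the 9 (9.22% of all promoters), and the E-box CACGTG only in Cth (5.59%). None of the 9 stretches held GTTAAT (HNF1 element, 6.45% of all promoters), TGACNNNGC (antioxidant response element, 10.1%) or TGATGNAA (Atf4 composite element, 3.40%). These are matches of letters in a window and not binding sites, and the start used in these livers was not measured.

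In normal liver the 10 genes together held 1.03% to 1.3% of all counts. Compared per length, by the FPKM values of the deposited table (counts scaled for transcript length and library total), Bhmt was highest at a mean of 1304 ± 627 (SD, n = 3), followed by Mat1a at 907 ± 129, Cdo1 at 905 ± 183 and Ahcy at 600 ± 87.6. The ranges of Bhmt, Mat1a and Cdo1 overlapped, so their order was not resolved. Cth stood at 357 ± 75.2 FPKM, Gnmt at 186 ± 55.1, Pemt at 183 ± 43.4, Cbs at 93.9 ± 6.89 and Csad at 69.6 ± 29.6. Gnmt and Pemt were not separated, nor were Cbs and Csad. Mat2a was far below them all at 8.62 ± 1.02 FPKM.

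In the DEN model group the 10 genes held 0.237% to 0.577% of all counts, and in the PZH group 0.855% to 0.894%. The 3 groups did not overlap in this share. The order per length also shifted in the DEN model group, where Mat2a (28.7 ± 8.44 FPKM) had a higher mean than Gnmt (20.6 ± 20.2 FPKM) and Cbs (13.3 ± 12.8 FPKM). This order held in rats M13 and M24 but not in M17, in which Gnmt (43.8 FPKM) and Cbs (28.03 FPKM) were above Mat2a (19.5 FPKM). In the PZH group Mat2a was again the lowest of the 10, at 16.7 ± 6.68 FPKM.

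**Figure D1:**
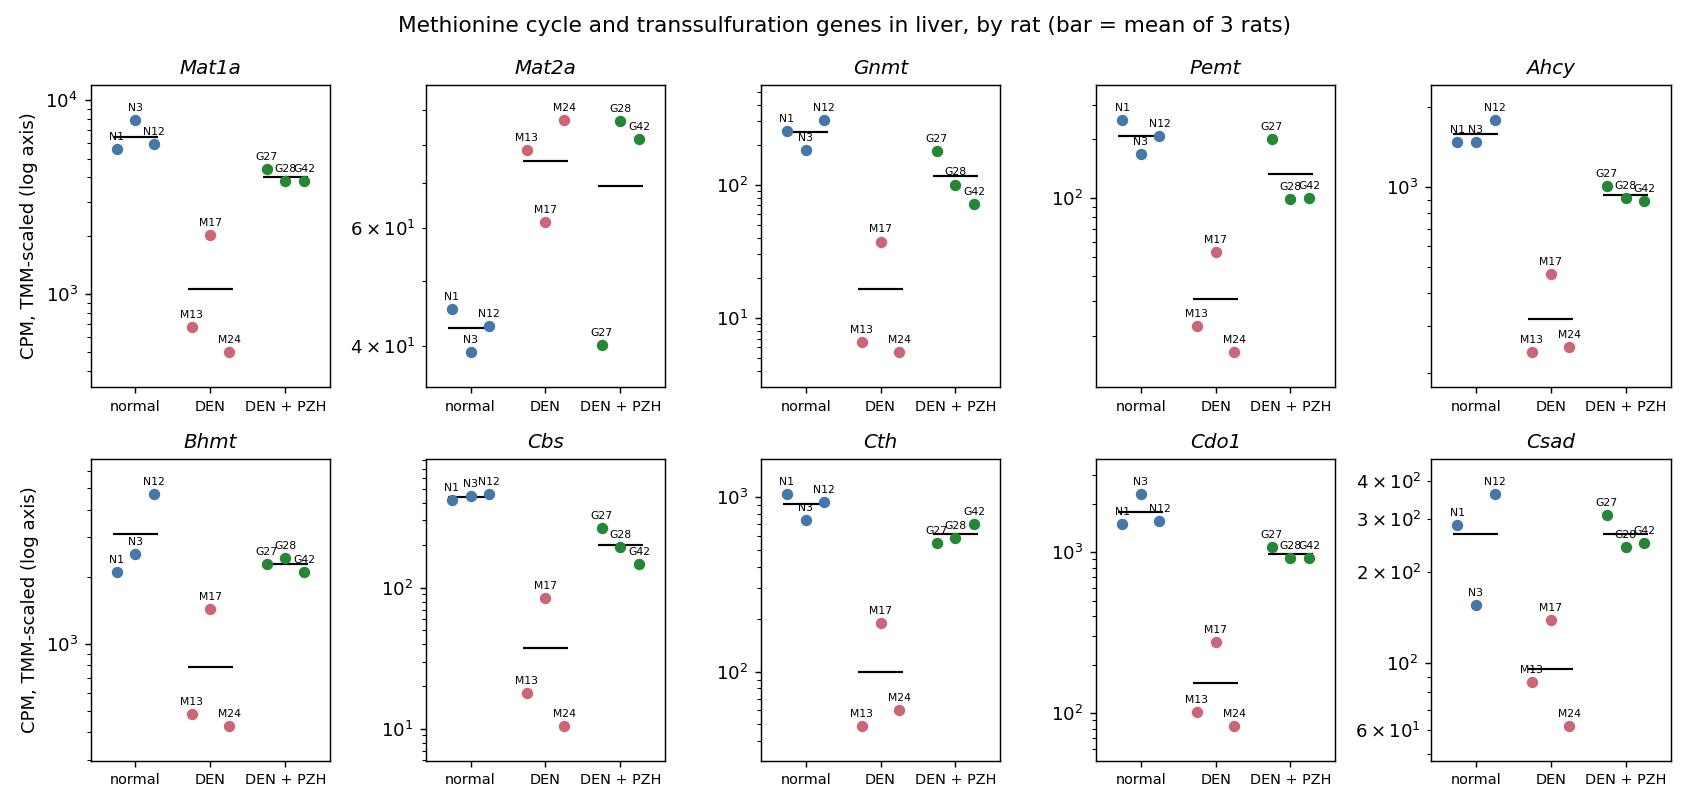
CPM (counts scaled to a common library size with TMM factors, log axis) of each of the 10 genes in every rat, with points for rats and a bar for the mean of the 3 rats of a group. Mat2a is higher in all 3 DEN rats than in the normal rats and the other 9 genes are lower, and M17 is the highest DEN rat in those 9.

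The first comparison asked which genes differed between DEN model and normal livers. Of the 10 genes, 9 fell and 1, Mat2a, rose (edgeR's quasi-likelihood test, adjusted p under 0.05), where 45.8% of all 14255 genes tested were called, 20.5% of them lower and 25.3% higher. The median log2 fold change of the members was -2.67, beside 0.03 over all genes tested. At the study's stricter thresholds (log2 fold change beyond 2 in either direction and an unadjusted P under 0.001), 6 members were lower (Gnmt, Pemt, Ahcy, Cbs, Cth and Cdo1), beside 3.49% of all genes. That count was 3 without any 1 of N1, N3, N12 and M13. The 2 groups did not overlap in CPM (counts scaled to a common library size with edgeR's TMM factors) for any of the 10 genes, as was the case for 58.8% of all genes. On the FPKM scale, which has no TMM factors, Bhmt did overlap (897 to 2026 in normal, 361 to 935 in DEN rats). Csad overlapped there too (37.7 to 96.2 in normal, 32.4 to 56.0 in DEN rats).

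Mat1a (ENSRNOG00000011351) lies on chromosome 16 at 18690246 to 18709133 in the coordinates of the deposited table, whose genome build is not given in the sources used here. It was at 5604, 7934 and 5922 CPM in the normal rats N1, N3 and N12, and at 679, 2008 and 501 CPM in M13, M17 and M24. Every DEN rat was below every normal rat, and M17 stood nearest to them. The log2 fold change was -2.59 (SE 0.58, adjusted p = 0.00731 in edgeR), a 6.03-fold lower level. By rank among all genes on the FPKM scale, Mat1a went from places 65 to 83 in normal livers to places 131 to 480 in DEN livers.

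Mat2a (ENSRNOG00000013520, chromosome 4, 100296075 to 100303080) was at 45.4, 39.1 and 42.8 CPM in the normal rats and at 78.6, 61.3 and 87.2 CPM in M13, M17 and M24. Here M17 was the lowest DEN rat, though still above all normal rats. The log2 fold change was 0.85 (SE 0.18, adjusted p = 0.00533 in edgeR), a 1.81-fold higher level.

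A ratio of the pair within a rat does not depend on how the libraries were scaled. On the FPKM scale, Mat1a exceeded Mat2a 85.6-fold, 141-fold and 96.1-fold in N1, N3 and N12, but 5.99-fold, 22.8-fold and 3.99-fold in M13, M17 and M24. All DEN rats were thus below all normal rats, with a mean log2 ratio lower by 3.69 (exact two-sided permutation test, p = 0.1 and 0.1 after adjustment over the 3 comparisons, the smallest p that 3 rats against 3 allow). Mat2a made up 0.705% to 1.15% of the FPKM of the pair in normal rats and 4.21% to 20.0% in DEN rats.

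**Figure D2:**
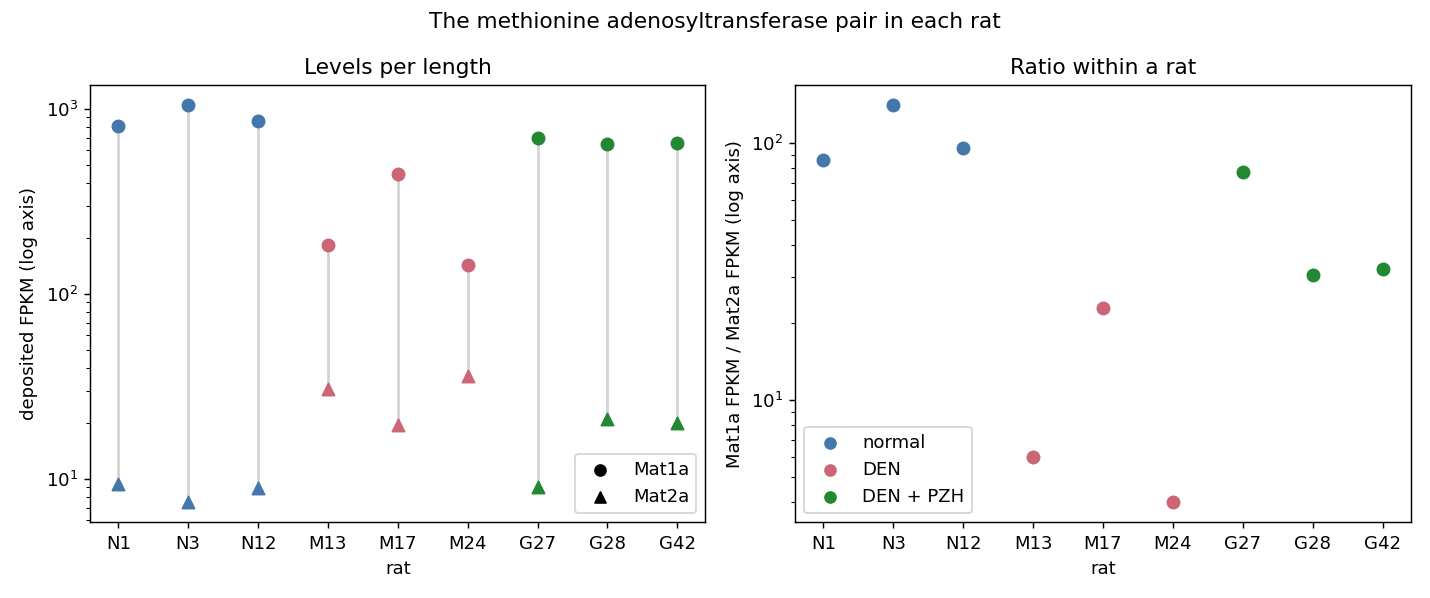
FPKM of Mat1a (circles) and Mat2a (triangles) in each rat on the left, and their ratio within the rat on the right, both on log axes with colours for the groups. The ratio is 85.6 to 141 in normal rats, 3.99 to 22.8 in DEN rats and 30.7 to 76.9 in PZH rats, and the 3 groups do not overlap.

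Gnmt had the lowest log2 fold change of the 10 genes. Gnmt (ENSRNOG00000016349, chromosome 9, 16565225 to 16568627) methylates glycine and is known for disposing of excess S-adenosylmethionine in liver. It was at 255, 181 and 307 CPM in N1, N3 and N12 and at 6.58, 37.5 and 5.52 CPM in M13, M17 and M24, a log2 fold change of -3.89 (SE 0.73, adjusted p = 0.00332 in edgeR). The DEN rats spanned 6.79-fold among themselves, yet M17, the highest, was still below the lowest normal rat. The locus overlaps that of Pex6, and whether the counting used strand is not given in the sources used here.

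Pemt (ENSRNOG00000054423, chromosome 10, 46339821 to 46404642) makes phosphatidylcholine by methylating phosphatidylethanolamine. Its level was 251, 168 and 207 CPM in the normal rats and 22.4, 53.0 and 16.4 CPM in M13, M17 and M24, so that the groups were well apart. This gave a log2 fold change of -2.75 (SE 0.43, adjusted p = 0.00145 in edgeR).

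Ahcy (ENSRNOG00000017777, chromosome 3, 150587833 to 150603082), the hydrolase that clears S-adenosylhomocysteine, was at 1480, 1485 and 1794 CPM in the normal rats and at 240.1, 472 and 250.3 CPM in M13, M17 and M24. It fell with a log2 fold change of -2.29 (SE 0.35, adjusted p = 0.00139 in edgeR). Bhmt (ENSRNOG00000011200, chromosome 2, 23236575 to 23256158), the betaine-dependent remethylation enzyme, was at 2104, 2521 and 4728 CPM in N1, N3 and N12 and at 484, 1436 and 426 CPM in M13, M17 and M24. Rat N12 stood above the other normal rats and M17 above the other DEN rats. Bhmt had a log2 fold change of -1.98 (SE 0.57, adjusted p = 0.0206 in edgeR), and it was no longer called without N12 (adjusted p = 0.0729), without M13 (0.0803) or without M24 (0.0609).

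The transsulfuration pair had lower log2 fold changes than Bhmt, a difference that was not tested. Cbs (ENSRNOG00000029528, chromosome 20, 10361988 to 10386751), which condenses homocysteine with serine, was at 417, 445 and 465 CPM in the normal rats and at 18.1, 84.3 and 10.5 CPM in M13, M17 and M24. The normal rats were tightly grouped, within 1.12-fold, whereas the DEN rats spanned 8.03-fold. The log2 fold change was -3.54 (SE 0.72, adjusted p = 0.0046 in edgeR). Cth (ENSRNOG00000010658, chromosome 2, 264266984 to 264293046), which splits cystathionine to release cysteine, was at 1050, 744 and 933 CPM in the normal rats and at 48.7, 190 and 60.1 CPM in M13, M17 and M24. Its log2 fold change was -3.17 (SE 0.53, adjusted p = 0.002 in edgeR).

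On the FPKM scale the ratio of Bhmt to Cbs, the enzymes on the 2 routes out of homocysteine, was 9.89, 11.1 and 19.9 in normal rats and 52.5, 33.4 and 79.6 in M13, M17 and M24. The groups did not overlap. This ratio was chosen after its values were seen and is given without a test. The ratio of Cth to Cbs overlapped between the same groups, at 3.07 to 4.64 and 4.14 to 10.5.

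Downstream of cysteine, Cdo1 (ENSRNOG00000000158, chromosome 18, 40701984 to 40716686), the dioxygenase that opens the route to taurine, was at 1490, 2312 and 1555 CPM in the normal rats and at 102, 274 and 83.1 CPM in M13, M17 and M24. The log2 fold change was -3.53 (SE 0.52, adjusted p = 0.00115 in edgeR), with every DEN rat more than 5-fold below the lowest normal rat. Csad (ENSRNOG00000011573, chromosome 7, 143781702 to 143793970), the decarboxylase that follows Cdo1, was at 285, 155 and 363 CPM in the normal rats and at 86.4, 139 and 61.8 CPM in M13, M17 and M24. M17 and N3 were close, and the log2 fold change of -1.46 (SE 0.38, adjusted p = 0.0142 in edgeR) was the least negative of the 9. It was not called without N12 (adjusted p = 0.0525) or without M13 (0.0511).

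The labelled tissue was checked against its markers. The 11 hepatocyte markers found in the table summed to 179442 to 197180 CPM in normal rats, and no marker of the 7 lists was at 0 in every rat. Markers of other cells moved with the DEN group. The hepatocyte sum was 38582 to 91417 CPM in DEN rats and 146304 to 194505 CPM in PZH rats. Of its 11 members, 5 were called lower in DEN than in normal livers, and all 11 had a negative log2 fold change. Marker counts in this paragraph are edgeR calls at an adjusted p under 0.05, beside 20.5% of all genes called lower and 25.3% higher. The stellate cell and myofibroblast markers summed to 195 to 323 CPM in normal, 1049 to 3201 CPM in DEN and 599 to 725 CPM in PZH rats, with 7 of 8 higher in DEN. The 6 cholangiocyte markers, all higher in DEN, summed to 13.4 to 21.1, 235 to 754 and 80.8 to 108 CPM, and the 4 markers of cycling cells, all higher, to 5.31 to 7.70, 101 to 156 and 26.4 to 73.0 CPM. Lymphocyte markers summed to 25.3 to 47.4, 79.5 to 123 and 38.2 to 46.7 CPM (4 of 6 tested higher in DEN), macrophage markers to 428 to 836, 394 to 530 and 223 to 516 CPM (2 of 6 lower) and endothelial markers to 299 to 378, 167 to 294 and 264 to 362 CPM (3 of 5 lower, 1 higher). Their part in the levels of the 10 genes was not tested.

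Rat M17 was the highest DEN rat for 9 of the 10 genes and the lowest for Mat2a. Against the mean of M13 and M24 on the log scale, its level was between 1.90-fold (Csad) and 6.22-fold (Gnmt) higher. The same rat had the highest hepatocyte sum of the DEN group (91417 CPM, beside 53597 in M13 and 38582 in M24), the lowest cholangiocyte sum (235 CPM, beside 624 and 754) and the lowest stellate cell and myofibroblast sum (1049 CPM, beside 1977 and 3201). Without M17, the same comparison called all 10 genes and 8 of them passed the study's thresholds.

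When the counts were scaled to the summed hepatocyte markers in place of TMM, 6 of the 9 lower genes were still called lower. Most of that sum was Alb and Tf (101828 and 34445 of 197180 CPM in N1), so the scaling mainly follows these genes. Their log2 fold changes were -2.54 for Gnmt, -2.19 for Cbs, -1.99 for Cdo1, -1.66 for Cth, -1.2 for Pemt and -1.10 for Mat1a. Ahcy at -0.64 (adjusted p = 0.0957) and Bhmt at -0.48 (adjusted p = 0.177) were not called, and Csad changed sign to 0.15 (adjusted p = 0.73, all by edgeR). Mat2a stood at 2.71, where the median over all genes was 1.83. This scaling raised the median over all genes by 1.79 on the log2 scale. It called 11569 of the 14255 genes, 11231 of them higher and 338 lower. A higher call under it, as for Mat2a, thus says little by itself, whereas lower calls were few. Library totals without TMM factors raised that median by 0.86, and Csad at -0.67 was then the only member not called (adjusted p = 0.107 in edgeR).

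**Figure D3:**
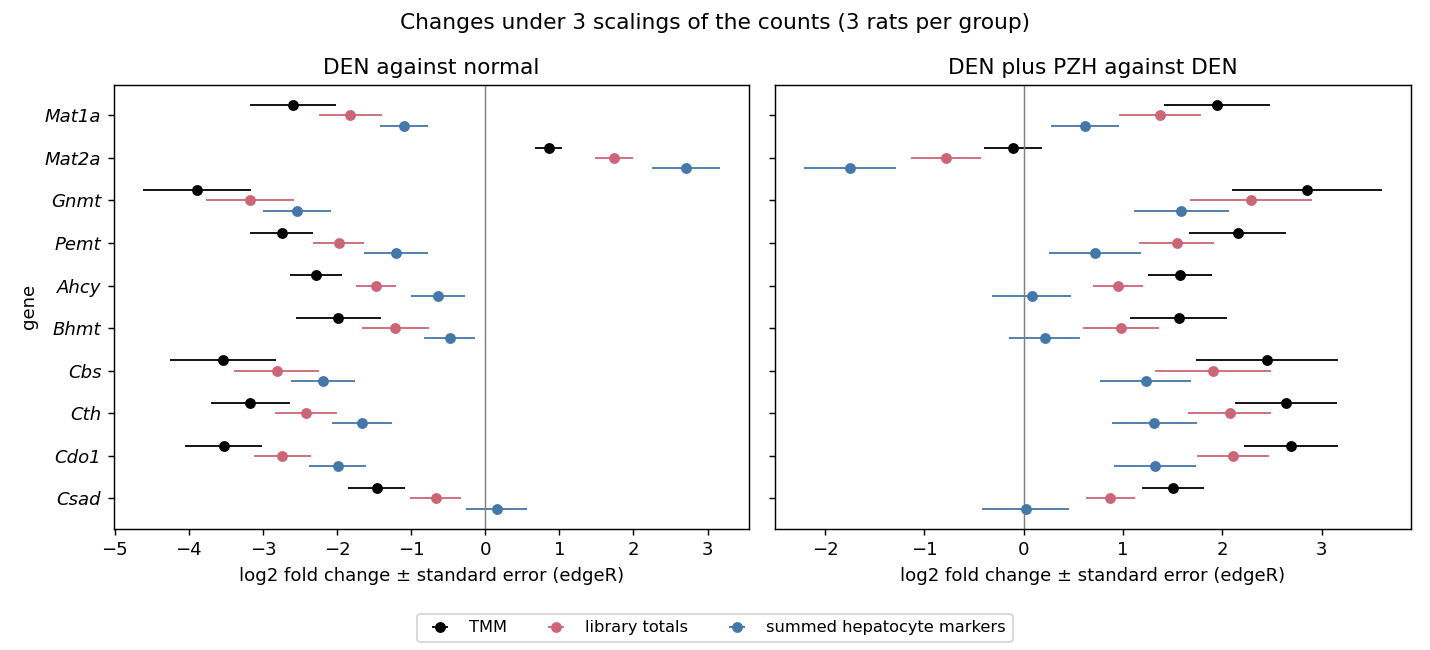
Log2 fold changes with standard errors (edgeR, 3 rats per group) of the 10 genes in DEN against normal (left) and DEN plus PZH against DEN (right) under TMM factors, library totals and the summed hepatocyte markers. Csad in DEN against normal moves from -1.46 to 0.15 between TMM and the hepatocyte scaling, whereas Gnmt stays negative at -2.54.

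The second comparison asked which genes differed between livers of rats given PZH with DEN and livers of rats given DEN alone. Of the 10 genes, 8 rose and Bhmt and Mat2a were not called (edgeR, adjusted p under 0.05), where 19.1% of all 14272 genes tested were called, 8.72% higher and 10.3% lower. The median log2 fold change of the members was 2.05, beside 0.01 over all genes tested. At the study's thresholds 2 members, Cth and Cdo1, were higher, beside 1.08% of all genes. In 9 genes every PZH rat was above every DEN rat, as in 18.5% of all genes. The comparison shares its DEN rats with the first, so that low values in those rats enter both.

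The number of calls depended on single rats of both groups, while the median log2 fold change of the members stayed between 1.73 (without M24) and 2.78 (without M17) when 1 rat was left out. Without M13 none of the 10 genes was called, although 9 had an unadjusted p under 0.05 and the lowest adjusted p was 0.0592 in edgeR, and over all genes 271 were called in place of 2722. Without M24 a single member, Cdo1, was called. Without M17 there were 9 calls, 7 of them past the study's thresholds. Leaving out G27 or G28 left 4 calls and leaving out G42 left 5. Over all genes the calls were 725 without M24, 3319 without M17, 2213 without G27, 1178 without G28 and 1221 without G42. Without any 1 rat other than M17 no member passed the study's thresholds (edgeR, with 9 members still at an unadjusted p under 0.05). DESeq2, run on all 6 rats, called 9 members and put 3 past those thresholds. In the same comparison edgeR called 4 of 11 hepatocyte markers higher in the PZH group, and all 11 had a positive log2 fold change. It called 5 of 8 stellate cell and myofibroblast markers and 6 of 6 cholangiocyte markers lower. Of the other lists, 3 of 6 macrophage, 1 of 4 cycling cell and 1 of 5 lymphocyte markers were called lower. Of 5 endothelial markers 1 was called higher and 1 lower. The shares over all genes were 8.72% called higher and 10.3% lower. The part of all these markers in these values was not tested.

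Mat1a was at 4438, 3833 and 3813 CPM in G27, G28 and G42, all above the 3 DEN rats (501 to 2008 CPM). The log2 fold change against DEN was 1.95 (SE 0.54, adjusted p = 0.0397 in edgeR), a 3.85-fold higher level. Mat2a was at 40.05, 86.7 and 81.7 CPM in the same rats, so that G27 lay at the level of normal rats while G28 and G42 lay within the DEN range (61.3 to 87.2 CPM). Its log2 fold change of -0.11 had a 95% interval from -0.78 to 0.57 (adjusted p = 0.826 in edgeR), which leaves room for a change of that size either way. Without G27 the value was 0.17 and without M24 it was 0.01.

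The ratio of Mat1a to Mat2a on the FPKM scale was 76.9, 30.7 and 32.4 in G27, G28 and G42. All 3 values were above the DEN rats and below the normal rats. The mean log2 ratio was higher than in DEN by 2.38 and lower than in normal by 1.31 (exact two-sided permutation tests, p = 0.1 each, the smallest possible). Mat2a made up 1.28%, 3.15% and 2.99% of the pair in G27, G28 and G42. Cycling cell markers summed to 26.4 CPM in G27 and to 68.6 and 73.0 CPM in G28 and G42, and their part in the Mat2a level was not tested.

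Gnmt was at 178, 100.4 and 71.3 CPM in G27, G28 and G42, a log2 fold change of 2.85 against DEN (SE 0.75, adjusted p = 0.0354 in edgeR), and Pemt was at 201, 99.1 and 100.5 CPM, a log2 fold change of 2.15 (SE 0.48, adjusted p = 0.0227). In both methyltransferases G27 was the highest PZH rat. All 3 PZH rats lay between the DEN and the normal values for Gnmt, whereas for Pemt G27 was within the normal range and G28 and G42 lay between. Ahcy was at 1013, 915 and 891 CPM and showed a log2 fold change of 1.57 (SE 0.32, adjusted p = 0.0174 in edgeR).

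Bhmt was at 2278, 2425 and 2108 CPM in the PZH rats, a tight group within 1.15-fold, and above all DEN rats (426 to 1436 CPM). Its log2 fold change of 1.56 (SE 0.49, 95% interval 0.45 to 2.67) nevertheless missed the threshold with an adjusted p of 0.0568 in edgeR. It was called by DESeq2 (adjusted p = 0.0025), with all 9 rats in one fit (0.0493) and without M17 (0.00148).

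Cbs was at 263, 194 and 148 CPM in G27, G28 and G42, a log2 fold change of 2.45 (SE 0.72, adjusted p = 0.0474 in edgeR). Cth was at 548, 582 and 706 CPM, a log2 fold change of 2.64 (SE 0.52, adjusted p = 0.0163). The pair differed in which rat was highest, G27 for Cbs and G42 for Cth. The ratio of Bhmt to Cbs was 16.96, 24.4 and 27.9 on the FPKM scale, below all DEN rats and overlapping the normal rats.

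Cdo1 was at 1082, 925 and 917 CPM and Csad at 309, 242 and 248 CPM in G27, G28 and G42. Their log2 fold changes against DEN were 2.69 (SE 0.47, adjusted p = 0.0133) and 1.5 (SE 0.31, adjusted p = 0.0186 in edgeR). Cdo1 had the lowest adjusted p of the 10 genes in this comparison.

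Scaled to the summed hepatocyte markers, Gnmt (1.59), Cth (1.32), Cdo1 (1.32) and Cbs (1.23) were still called higher in log2 fold change, and Mat2a was called lower (-1.75, adjusted p = 0.00058 in edgeR). Mat1a (0.62), Pemt (0.72), Bhmt (0.21), Ahcy (0.08) and Csad (0.02) were not called. The median over all genes moved by -1.62 under this scaling, and by -0.67 with library totals. Under the hepatocyte scaling 162 of 14272 genes were called higher and 11205 lower. The lower call of Mat2a thus says little by itself.

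**Figure D4:**
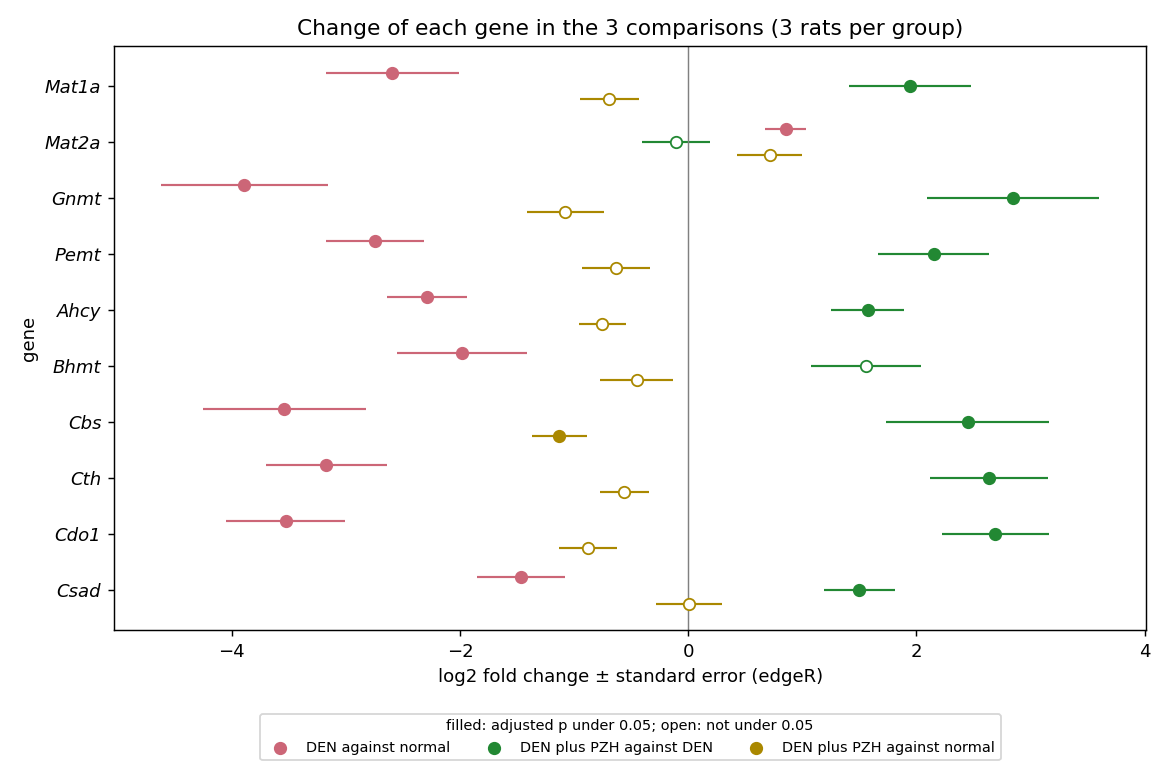
Log2 fold changes (points) with standard errors (lines) of the 10 genes in the 3 comparisons, by edgeR's quasi-likelihood test with 3 rats per group, filled where the adjusted p is under 0.05. In DEN against normal all 10 points are filled, in DEN plus PZH against DEN 8, and in DEN plus PZH against normal only Cbs at -1.13.

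The third comparison set the PZH group beside the normal group, and its rats also enter the other comparisons. Only Cbs was called, lower in the PZH group with a log2 fold change of -1.13 (SE 0.24, adjusted p = 0.0313 in edgeR), where 5.21% of all 13348 genes tested were called and 1.15% were called lower. All 3 PZH rats (148 to 263 CPM) were below all normal rats (417 to 465 CPM). This call was kept in 5 of 12 alternatives and was lost, among others, with at least 10 counts in every rat and with all 9 rats in one fit. Without G27, 4 members were called (3 lower and 1 higher), and without any other single rat none was, with 4 or 5 at an unadjusted p under 0.05. Over all genes, 1326 were called without G27 and 207 to 432 without another single rat, in place of 696. DESeq2 called 5 members lower, namely Mat1a (adjusted p = 0.0356), Gnmt (0.022), Ahcy (0.00324), Cbs (0.000319) and Cdo1 (0.00944). No member passed the study's thresholds by edgeR or by DESeq2, as 2.32% of all genes did by edgeR, and 7 had an unadjusted p under 0.05 in edgeR. In the same comparison edgeR called 6 of 6 cholangiocyte and 4 of 4 cycling cell markers higher in the PZH group. It also called 4 of 8 stellate cell and myofibroblast and 1 of 5 endothelial markers higher. No hepatocyte, macrophage or lymphocyte marker was called by edgeR, with 1 of 11, 1 of 6 and 0 of 4 at an unadjusted p under 0.05. Their part in these values was not tested.

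Read by CPM ranges alone, 6 of the 10 genes stood apart. Mat1a, Gnmt, Ahcy, Cbs, Cth and Cdo1 did not overlap in CPM and were lower in the PZH group, as were 10.6% of all genes. On the FPKM scale Gnmt did overlap (127 to 236 in normal, 64.7 to 148 in PZH rats). Cth overlapped there too (274 to 421 in normal, 238 to 335 in PZH rats). The log2 fold changes, of which edgeR called only that of Cbs, were -1.08 for Gnmt (95% interval -1.84 to -0.31), -0.88 for Cdo1 (-1.46 to -0.30), -0.75 for Ahcy (-1.22 to -0.28), -0.69 for Mat1a (-1.28 to -0.10) and -0.56 for Cth (-1.05 to -0.07). Pemt (-0.63), Bhmt (-0.45) and Csad (0.01) overlapped between the groups. Mat2a overlapped too at 0.72 (95% interval 0.08 to 1.36, adjusted p = 0.213 in edgeR). The median of the members was -0.66, beside -0.02 over all genes.

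Across the 9 rats, the members most alike in their pattern were Gnmt and Cbs, whose log2 CPM, centred on each gene's mean, differed by a root mean square of 0.28. Ahcy and Bhmt followed at 0.34 and Mat1a and Pemt at 0.35. The least alike pair was Mat2a and Gnmt at 2.38. Over the 12744 genes compared, those most like Mat1a included Slc30a10 (0.13) and Hao1 (0.18), and those most like Mat2a were Nsun3 (0.13), Dck (0.16) and Zfp90 (0.16). These distances describe the same 9 libraries and carry no test.

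The rest of the pathway was read from a list of 69 genes in 7 groups. In DEN against normal, 66 were tested, 37 fell and 6 rose, with a median log2 fold change of -0.98. In PZH with DEN against DEN, 19 of 66 rose and 2 fell, with a median of 0.71. In PZH with DEN against normal, 1 of 65 rose and 3 fell, with a median of -0.29. The called shares were 65.2%, 31.8% and 6.15% in this order, beside 45.8%, 19.1% and 5.21% of all genes. The last share was thus near that over all genes. Without M13, M24, G28 or G42 the calls of PZH against DEN were 2, 6, 7 and 7, and without M17 they were 36. In PZH against normal they were 9 without G27 and 1 or 2 without any other single rat.

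The balance of directions in this list depended on the scaling, which moves all genes together. Library totals gave 18 higher and 19 lower in DEN against normal, and 11 of each in PZH against DEN. The summed hepatocyte markers, applied to this list after the data had been seen, gave 29 higher and 3 lower, then 2 higher and 28 lower. In PZH against normal both gave 2 higher and 1 lower. Over all genes, the calls in DEN against normal were 3612 higher and 2917 lower with TMM, 8126 and 958 with library totals, and 11231 and 338 with the hepatocyte markers. In PZH against DEN they were 1245 higher and 1477 lower with TMM, 556 and 5696 with library totals, and 162 and 11205 with the hepatocyte markers. In PZH against normal they were 543 and 153, 818 and 91, and 764 and 110 in the same order. The directions that follow are relative to TMM. Of the named genes, Baat and Inmt kept their direction and their calls in both comparisons under all 3 scalings. Mthfd1l and Slc6a6 did too, but both alternatives shift all genes in the direction of their changes and so could not turn them. In DEN against normal Bhmt2 (-0.31), Dmgdh (-0.34), Ftcd (-0.68), Pcyt2 (-0.39) and Adi1 (0.48) were not called under the hepatocyte scaling. In PZH against DEN the same scaling also lost the calls of Bhmt2 (0.053, adjusted p = 0.908 in edgeR), Ftcd (0.51, adjusted p = 0.257), Pcyt2 (-0.047, adjusted p = 0.923) and Adi1 (-0.63, adjusted p = 0.185).

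Of the other genes of the methionine cycle, 3 of 7 fell in DEN livers and none rose by edgeR, a share of 42.9% beside 45.8% of all genes. Bhmt2, a close paralogue of Bhmt that remethylates homocysteine with S-methylmethionine, was at 473 to 502 CPM in normal, 82.0 to 202 CPM in DEN and 249 to 425 CPM in PZH rats. Its log2 fold change was -1.91 against normal (adjusted p = 0.00295) and 1.5 in the PZH group against DEN (adjusted p = 0.0314 in edgeR). How reads shared by Bhmt and Bhmt2 were assigned is not given in the sources used here, so the split between the paralogues is uncertain.

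Of 6 tested methyltransferases outside the members, 5 fell in DEN livers and 4 rose with PZH. The called shares were 83.3% beside 45.8% of all genes, and 66.7% beside 19.1%. Inmt, an indolethylamine methyltransferase, was at 1.33, 4.19 and 40.6 CPM in N1, N3 and N12, at 0.297, 0 and 0 CPM in M13, M17 and M24, and at 11.7, 9.67 and 3.56 CPM in G27, G28 and G42. It was called in both comparisons (adjusted p = 0.00662 and 0.0101 in edgeR), but 2 DEN rats had no counts and the normal rats differed widely, so that no fold is given. Of the 5 genes of choline and betaine oxidation, 4 fell in DEN livers, a share of 80% beside 45.8% of all genes. With PZH none of the 5 was called by edgeR, beside 19.1% of all genes, although 4 had an unadjusted p under 0.05. DESeq2 called 4 higher. Dmgdh, the mitochondrial dimethylglycine dehydrogenase downstream of Bhmt, had log2 fold changes of -1.88 in DEN against normal (adjusted p = 0.00643) and 1.44 in PZH against DEN (adjusted p = 0.0575 in edgeR).

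The folate genes went both ways. Of 18 tested, 8 fell and 4 rose in DEN livers, and 3 rose and 1 fell with PZH. The called shares were 66.7% beside 45.8% of all genes, and 22.2% beside 19.1%. The share with PZH was thus near that over all genes. Mthfd1l, a mitochondrial formyltetrahydrofolate synthetase, was at 0.534 to 2.03 CPM in normal, 7.97 to 13.9 CPM in DEN and 2.52 to 5.08 CPM in PZH rats, with log2 fold changes of 2.98 (adjusted p = 0.00131) and -1.29 (adjusted p = 0.0379 in edgeR). Ftcd, a liver enzyme that links histidine breakdown to the folate pool, was at 445 to 631, 61.4 to 180 and 328 to 473 CPM, with log2 fold changes of -2.25 (adjusted p = 0.00261) and 1.91 (adjusted p = 0.0182).

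Of 10 tested genes of cysteine, sulfide and taurine handling, 7 fell and 1 rose in DEN livers, and 5 rose and 1 fell with PZH. The called shares were 80% beside 45.8% of all genes, and 60% beside 19.1%. Baat, which conjugates bile acids with taurine or glycine, was at 1070 to 1315 CPM in normal, 82.3 to 274 CPM in DEN and 809 to 954 CPM in PZH rats. Its log2 fold changes were -2.90 (adjusted p = 0.00176) and 2.51 (adjusted p = 0.0142 in edgeR). Slc6a6, the taurine transporter, went the other way, from 2.1 to 3.36 CPM in normal rats to 21.7 to 34.0 CPM in DEN and 8.96 to 12.4 CPM in PZH rats. Its log2 fold changes were 3.38 in DEN against normal (adjusted p = 0.000126), -1.45 in PZH against DEN (adjusted p = 0.0116) and 1.91 in PZH against normal (adjusted p = 0.00873, all by edgeR), the only gene of the 69 called higher in the last comparison.

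Of 10 methionine salvage and polyamine genes, 3 were lower and 1 was higher in DEN livers, a share of 40% beside 45.8% of all genes. Sms, spermine synthase, rose from 1.98 to 4.68 CPM in normal rats to 5.10 to 7.94 CPM in DEN rats (log2 fold change 1.23, adjusted p = 0.0267 in edgeR), and Adi1, a dioxygenase of methionine salvage, fell by 1.2 (adjusted p = 0.00527) and was the 1 gene of this group called higher with PZH (0.88, adjusted p = 0.0403). Adi1 changed sign under the hepatocyte scaling in both comparisons (0.48 and -0.63). With library totals Adi1 was called in neither (-0.38, adjusted p = 0.142, and 0.25, adjusted p = 0.332, in edgeR). With PZH the called share of this group was 10%, beside 19.1% of all genes. Of 10 tested genes of the CDP-choline and CDP-ethanolamine routes, which run beside Pemt, 7 fell in DEN livers and 5 rose with PZH. The called shares were 70% beside 45.8% of all genes, and 50% beside 19.1%. Pcyt2, the step that makes CDP-ethanolamine, was at 180 to 236, 36.7 to 79.8 and 123 to 172 CPM in normal, DEN and PZH rats, with log2 fold changes of -2.02 (adjusted p = 0.00153) and 1.45 (adjusted p = 0.0227 in edgeR).

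**Figure D5:**
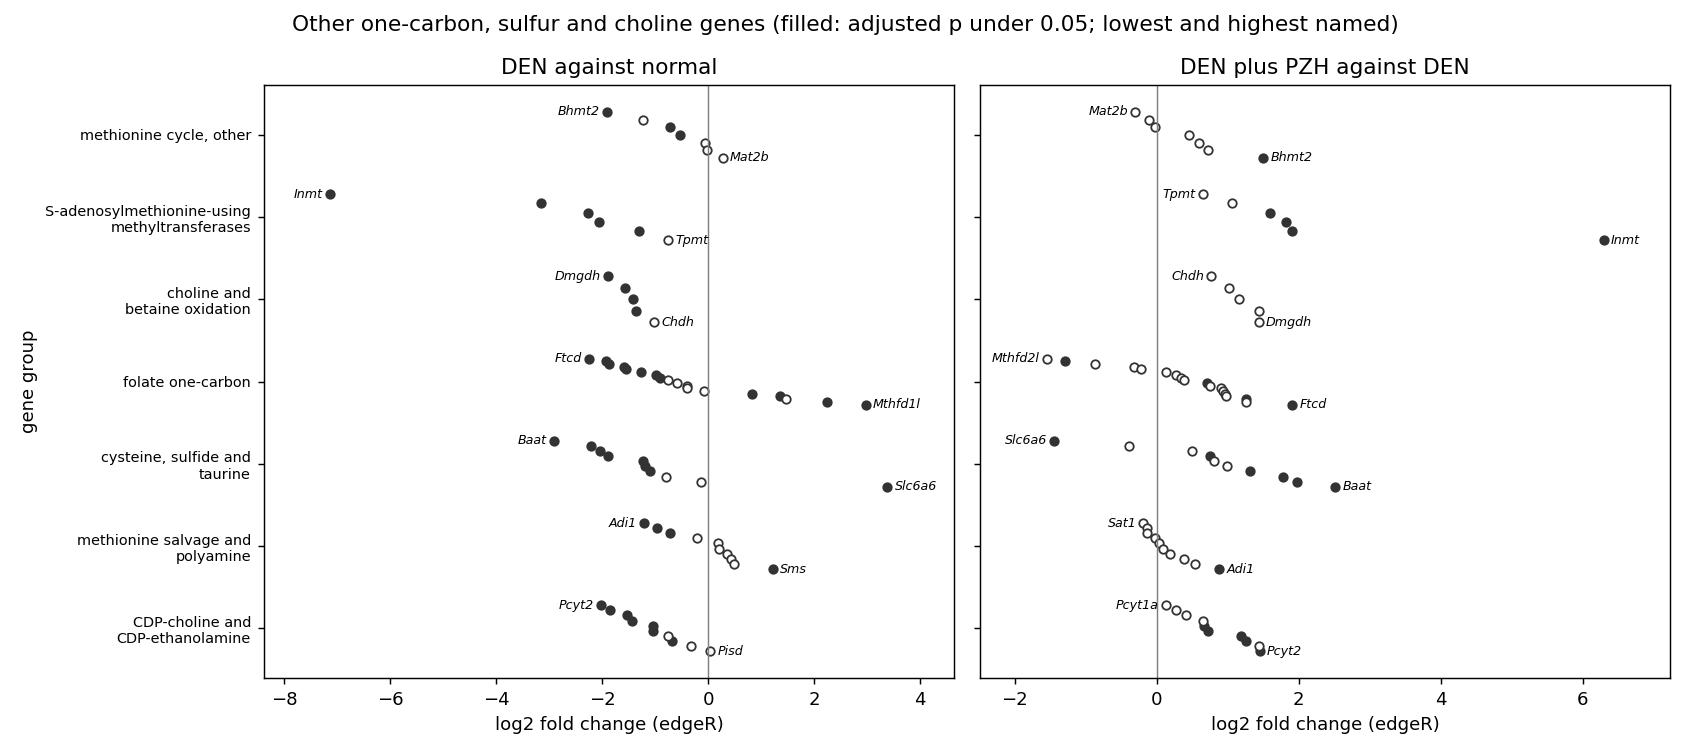
Log2 fold changes (edgeR) of the tested genes of the 7 groups in DEN against normal (left) and DEN plus PZH against DEN (right), with a point for each gene, filled where the adjusted p is under 0.05. Slc6a6 at 3.38 and Mthfd1l at 2.98 are the highest points on the left, and Inmt, with 2 DEN rats at 0 counts, is the farthest point on both sides.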

How the data were processed

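Liver mRNA libraries of 9 rats, 3 in each group, were analysed from 1 table with a gene in each line. The authors deposited whole-number read counts per gene and rat, not normalised, and FPKM values, which the authors scaled for transcript length and library total. Per the labels' processing notes the authors used fastp, HISAT2 2.1.0, StringTie 1.3.3b and edgeR 3.30.3, and the genome build and the counting options are not given in the sources used here. The table's columns of group comparisons were not used. The table's rat columns were all mapped by name.

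The 10 members and the lists of other genes were chosen with earlier results of these data known. Low counts were removed with filterByExpr, TMM factors were applied, and edgeR 4.0.16 (R 4.3.3) gave quasi-likelihood tests for the 6 rats in a comparison, with no covariate and with Benjamini-Hochberg adjustment over all genes tested. Standard errors were taken from the F statistic. CPM per rat used TMM factors of all 9 rats. The ratio of Mat1a to Mat2a was tested with an exact permutation test (SciPy 1.17.1). Each rat gave 1 library. The edgeR p-values set a group difference against the spread between rats, estimated with information shared across genes.

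Total counts were 16115709 to 16412520 in normal, 15259441 to 16641954 in DEN and 14922973 to 27161496 in PZH rats, and TMM factors were 0.731 to 0.799, 1.21 to 1.58 and 0.863 to 0.941. A floor of 3 counts equals 0.125 to 0.252 CPM and covers counting error only. The lowest member count in any rat was 133 (Gnmt).

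Alternatives were DESeq2 1.42.0, library totals, no filter, at least 10 counts in every rat, all 9 rats in one fit, scaling to summed hepatocyte markers (for the wider list chosen after seeing the data), a pseudocount of 1 for the FPKM ratio and leaving out each rat. On simulated counts for DEN against normal, edgeR called 191 of 200 genes altered at log2 2 (95.5%) among 14096 genes, with 8 false calls, and DESeq2 recovered 187 (93.5%) among 14255 genes with 20 false calls. The simulation gave all genes and both groups the same dispersion. It did not copy the spread of the DEN rats or their TMM factors, so it checks the code and not the error rates in these livers. Named were all 10 members, in each group of the wider list the called gene with the largest absolute log2 fold change in DEN against normal and in PZH against DEN, and the 3 genes most like Mat1a and Mat2a, of which 1 is not reported here.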

Additional observations from a re-analysis of the deposited data

How the results depend on the processing

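With 3 rats in a group the calls of PZH against DEN depended on single rats, and depth did not limit the members, none of which was near the floor. Leaving out 1 rat in turn gave 8 to 10 called members in DEN against normal (3 to 8 past the study's thresholds), 0 to 9 in PZH against DEN (0 without M13, 9 without M17, and 0 to 7 past the study's thresholds) and 0 to 4 in PZH against normal (4 without G27), and 31 to 46, 2 to 36 and 1 to 9 called genes of the wider list. Each such fit kept at least 2 rats in a group. Over all genes these fits called 4724 to 6790, 271 to 3319 and 207 to 1326 genes in the 3 comparisons.

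Scaling to the summed hepatocyte markers gave 3 members past the study's thresholds in DEN against normal in place of 6, and 5 called and 0 past those thresholds in PZH against DEN. DESeq2 called 5 members in PZH against normal in place of 1, and 32 and 7 genes of the wider list in PZH against DEN and in PZH against normal in place of 21 and 4. Requiring at least 10 counts in every rat gave 0 members and 2 genes of the wider list in PZH against normal, and 1 fit of all 9 rats gave 0 members. The other planned settings kept these counts within 1.5 times.

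Signs turned for Csad in DEN against normal under the hepatocyte scaling (0.15), for Mat2a in PZH against DEN without M24 (0.01) or G27 (0.17; -0.29 to 0.17 over all rats left out), and for Sms there with library totals (-0.67), with at least 10 counts in every rat (-0.0091), under the hepatocyte scaling (-1.65), without M17 (-0.17) or without G28 (-0.21, up to 0.16 without G27). The hepatocyte scaling also turned Adi1 (0.48 in DEN against normal and -0.63 in PZH against DEN) and Pcyt2 (-0.047 in PZH against DEN). In PZH against normal Csad turned with DESeq2 (-0.00060), without a filter (-0.0028), with all 9 rats (-0.0068), without N3 (-0.26) and without G27 (-0.12, with a highest value of 0.28 without N12), and Inmt without N12 (1.56, with a lowest value of -1.42 without N1). Causes were not tested. The ratio of Mat1a to Mat2a kept its sign in every alternative. No paired analysis was possible because the rats' numbers are not shared between groups.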
